A study of Mus musculus with 36 samples.

Results

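The genes described here are the members of cytochrome P450 families 1 to 3 that the arrays measured with a probe set of their own. They were chosen by name, as symbols beginning with Cyp1, Cyp2 or Cyp3 followed by a subfamily letter and a number, without pseudogenes, and each was represented by its brightest probe set with 1 gene symbol. This gave 52 genes of 19938 gene symbols, in 16 subfamilies, and each had 1 such probe set. RNA came from male C57Bl/6 mice that were wild type or carried 1 inactivated copy of Myc (Myc+/-), at 5 or 24 months of age, and from liver, skeletal muscle and white adipose tissue of the same animals. For each tissue the RNA of all animals of a group was mixed in equal parts, which made 12 pools: young wild type pools held 6 mice and old ones 5, while young Myc+/- pools held 5 mice and old ones 8. Every pool went onto 3 technical arrays (Affymetrix Mouse Gene 1.0 ST, 36 arrays). A group is therefore a single pool, the error between its 3 arrays is technical, and in mixed tissue fewer cells of a type and less RNA per cell cannot be told apart. The labels name no treatment for any group, and they do not describe the Myc allele further.

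Cytochromes P450 are haem enzymes of the endoplasmic reticulum that insert an oxygen atom into a substrate with electrons passed on by P450 oxidoreductase. Families 1 to 3 oxidise drugs, pollutants, steroids, fatty acids and vitamin D, and most of their members are made by hepatocytes. Ligands reach many of these genes through receptors: the aryl hydrocarbon receptor (AHR) for Cyp1a1, Cyp1a2 and Cyp1b1, the constitutive androstane receptor (CAR) and the pregnane X receptor (PXR) for Cyp2b10, Cyp2c55 and Cyp3a11. In mice several members differ between the sexes under the pulses of growth hormone, with Cyp2b9, Cyp2b13, Cyp2c38, Cyp2c39, Cyp3a16 and Cyp3a44 higher in females and Cyp2d9 and Cyp2u1 higher in males.

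The stretches in front of these genes show how closely related some members are and which letters they share. RefSeq promoters (build GRCm38.p6, 250 bases before to 50 bases after a transcription start) were found for 44 of the 52 members. The windows of Cyp2b9 and Cyp2b13, neighbours on chromosome 7, were identical at 298 of 300 bases (99.3%), and capitals mark the 2 that differ.
Cyp2b9, chr7:26173159-26173458, plus strand: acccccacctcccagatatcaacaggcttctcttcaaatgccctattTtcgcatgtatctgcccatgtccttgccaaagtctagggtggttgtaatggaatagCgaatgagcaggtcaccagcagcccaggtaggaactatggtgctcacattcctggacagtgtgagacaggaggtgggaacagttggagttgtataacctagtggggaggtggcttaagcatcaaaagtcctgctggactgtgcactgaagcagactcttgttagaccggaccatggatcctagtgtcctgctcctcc
Cyp2b13, chr7:26061245-26061544, plus strand: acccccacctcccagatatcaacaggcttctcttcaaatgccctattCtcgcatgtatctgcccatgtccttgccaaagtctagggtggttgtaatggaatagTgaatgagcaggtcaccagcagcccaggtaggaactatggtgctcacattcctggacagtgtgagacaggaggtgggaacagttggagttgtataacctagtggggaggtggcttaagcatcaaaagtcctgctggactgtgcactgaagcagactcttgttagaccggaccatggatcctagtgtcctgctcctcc
Among members that were lower in old liver, Cyp2d9, Cyp2d10 and Cyp2d40 lie on chromosome 15. The windows of Cyp2d9 and Cyp2d10 were identical over 83.3% of their alignment, and those of Cyp2d9 and Cyp2d40 over 54.7%. Capitals mark the match to the TATA box letters TATAAA on the opposite strand, which begins 28, 31 and 91 bases before the start. Cyp2d26, which was not lower in old liver, holds the same match 31 bases before its start. TATAAA on either strand was in 4 of 8 members higher in old liver and in 3 of 3 lower ones with a window.
Cyp2d9, chr15:82452127-82452426, plus strand: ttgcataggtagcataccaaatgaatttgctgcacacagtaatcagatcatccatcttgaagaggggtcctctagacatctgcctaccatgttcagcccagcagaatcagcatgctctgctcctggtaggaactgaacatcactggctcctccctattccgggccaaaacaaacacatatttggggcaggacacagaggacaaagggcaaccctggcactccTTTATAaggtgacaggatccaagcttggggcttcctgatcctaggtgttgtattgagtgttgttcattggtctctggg
Cyp2d10, chr15:82407145-82407444, minus strand: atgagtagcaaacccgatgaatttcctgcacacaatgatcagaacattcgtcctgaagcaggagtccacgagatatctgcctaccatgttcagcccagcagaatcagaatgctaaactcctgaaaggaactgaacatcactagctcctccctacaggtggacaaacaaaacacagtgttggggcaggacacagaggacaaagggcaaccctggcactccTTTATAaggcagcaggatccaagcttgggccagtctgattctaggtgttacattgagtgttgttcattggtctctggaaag
Cyp2d40, chr15:82764073-82764372, minus strand: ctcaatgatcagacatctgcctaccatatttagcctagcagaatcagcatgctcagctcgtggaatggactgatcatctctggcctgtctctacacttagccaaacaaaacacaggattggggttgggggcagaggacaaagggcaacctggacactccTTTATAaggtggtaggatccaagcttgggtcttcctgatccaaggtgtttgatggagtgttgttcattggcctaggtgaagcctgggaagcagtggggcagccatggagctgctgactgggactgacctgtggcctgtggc
The hepatocyte factor HNF4A binds a repeat for which CAAAGTCCA was searched, marked in capitals in Cyp2c67, Cyp2c68 and Cyp3a11, members with bright hepatic probe sets. Of the other carriers of these letters, Cyp2c70 was bright in liver too, with a mean log2 level of 13.56. Cyp2c65 and Cyp3a16 were dim there, with mean log2 levels of 4.16 and 4.80.
Cyp2c67, chr19:39648993-39649292, minus strand: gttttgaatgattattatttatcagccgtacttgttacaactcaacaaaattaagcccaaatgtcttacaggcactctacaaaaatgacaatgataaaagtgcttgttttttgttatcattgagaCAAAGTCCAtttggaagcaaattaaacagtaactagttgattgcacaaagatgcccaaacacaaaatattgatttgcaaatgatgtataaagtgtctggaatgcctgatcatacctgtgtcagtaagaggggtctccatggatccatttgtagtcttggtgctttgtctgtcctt
Cyp2c68, chr19:39741052-39741351, minus strand: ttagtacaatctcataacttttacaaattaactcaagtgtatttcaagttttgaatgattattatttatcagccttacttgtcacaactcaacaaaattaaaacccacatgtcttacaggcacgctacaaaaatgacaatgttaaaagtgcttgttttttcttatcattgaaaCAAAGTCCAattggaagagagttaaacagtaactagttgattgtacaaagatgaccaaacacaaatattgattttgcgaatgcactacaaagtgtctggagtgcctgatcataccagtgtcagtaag
Cyp3a11, chr5:145879805-145880104, minus strand: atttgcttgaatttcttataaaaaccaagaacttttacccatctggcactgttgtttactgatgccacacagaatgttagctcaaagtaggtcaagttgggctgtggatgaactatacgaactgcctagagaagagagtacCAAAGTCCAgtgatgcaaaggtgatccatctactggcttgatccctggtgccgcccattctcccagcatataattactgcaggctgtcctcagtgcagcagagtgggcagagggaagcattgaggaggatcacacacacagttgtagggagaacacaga
The AHR core GCGTG is marked, as read on the opposite strand, in Cyp1b1, which was higher with age in muscle and adipose tissue.
Cyp1b1, chr17:79715012-79715311, minus strand: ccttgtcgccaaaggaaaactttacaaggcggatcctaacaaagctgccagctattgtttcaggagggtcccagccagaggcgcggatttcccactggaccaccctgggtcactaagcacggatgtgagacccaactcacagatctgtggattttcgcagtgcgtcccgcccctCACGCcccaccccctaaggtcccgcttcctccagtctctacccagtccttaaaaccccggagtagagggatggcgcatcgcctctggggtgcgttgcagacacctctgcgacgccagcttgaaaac
Searched on both strands, TATAAA was in 22 of 44 members (50.0%) and in 14.8% of 17492 protein-coding genes with a promoter window. CAAAGTCCA was in 6 members (13.6%; Cyp2c65, Cyp2c67, Cyp2c68, Cyp2c70, Cyp3a11 and Cyp3a16) and in 0.52% of all genes. GCGTG was in 9 members (20.5%) and 41.4% of all genes, and CACGTG, the E-box bound by Myc, was in 1 member (2.27%; Cyp2j6) and 8.91% of all genes. The growth hormone element TTCNNNGAA was in 2 members (4.55%; Cyp2j11 and Cyp2j12) and 8.92% of all genes, and TTATGTAA, the D-box of clock output factors, was in 0 members and 1.05% of all genes. No match of a motif overlapped a match of another in the members' windows. These matches describe letters in a window and do not show binding.

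Values are log2 expression values as deposited, so a difference of 1 is a 2-fold change, and levels of different probe sets are used only to sort members into sets by the filter or by a mean level. Array medians ran from 6.95 to 7.14. Array 1 of the 5-month Myc+/- liver pool stood apart: its 99.9th percentile was 13.77, and the other liver arrays ran from 14.35 to 14.51. Of the 17 members with a mean liver level above 12, this array read below the mean of the other arrays of its pool by a median of -0.44 (from -0.69 to -0.11). The main counts of members, and their medians over all members tested, are therefore also given without this array where they differ. Medians of subfamilies and of groups by role, and the sums and counts of gene lists, include it. Myc itself read 8.57 in 5-month wild type, 7.97 in 5-month Myc+/-, 8.56 in 24-month wild type and 8.32 in 24-month Myc+/- liver (log2, pool means). As a check of the tissue label, hepatocyte markers summed to 17.73, 17.55, 17.70 and 17.68 in the same 4 liver pools (log2 of the summed linear values), and 0 of 11 changed with age. The arrays of the 5-month Myc+/- pool ran from 17.07 to 17.80 in this sum.

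In liver 34 of the 52 members passed the filter on dim probe sets, which asks for a mean in the tissue above the 40th percentile of probe sets with 1 symbol. The other 18 had mean liver levels of 4.16 to 6.81 and were not tested, among them Cyp1a1, Cyp1b1, Cyp2b13, Cyp2g1, Cyp2w1, Cyp3a16 and Cyp3a57. Relative to muscle 34 of 35 members tested were higher in liver and 1 was lower (limma on pool means, adjusted p under 0.05; 37.1% of all probe sets tested were higher and 46.2% lower), with a median difference of 5.72. Relative to adipose tissue 32 were higher and 2 lower (35.4% and 46.1% of all), with a median of 5.61. A probe set entered these comparisons if it passed the filter in liver or in the other tissue. Of the members only 6 passed in both liver and muscle, and 10 in both liver and adipose tissue. The direction of the others was largely set by the filter, so these counts and medians are a description. Cyp2c67, a member of the steroid- and drug-oxidising 2C group, differed by 8.18 ± 0.14 from muscle (log2, SE, 4 pools a tissue) and Cyp2c29, an epoxygenase induced by CAR, by 7.69 ± 0.23. The gradient was small for members with wide expression. Cyp2e1, which oxidises ethanol and acetone, was only 0.54 ± 0.17 above adipose tissue, and Cyp2j9, a fatty acid oxidase, differed from it by -0.05 ± 0.07 (limma, adjusted p = 0.486). Cyp1b1, which oxidises oestrogens and retinoids, was lower in liver by -3.44 ± 0.13 against adipose tissue and -0.87 ± 0.13 against muscle, and Cyp2s1, known from epithelia, was lower than in adipose tissue by -0.79 ± 0.09.

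**Figure D1:**
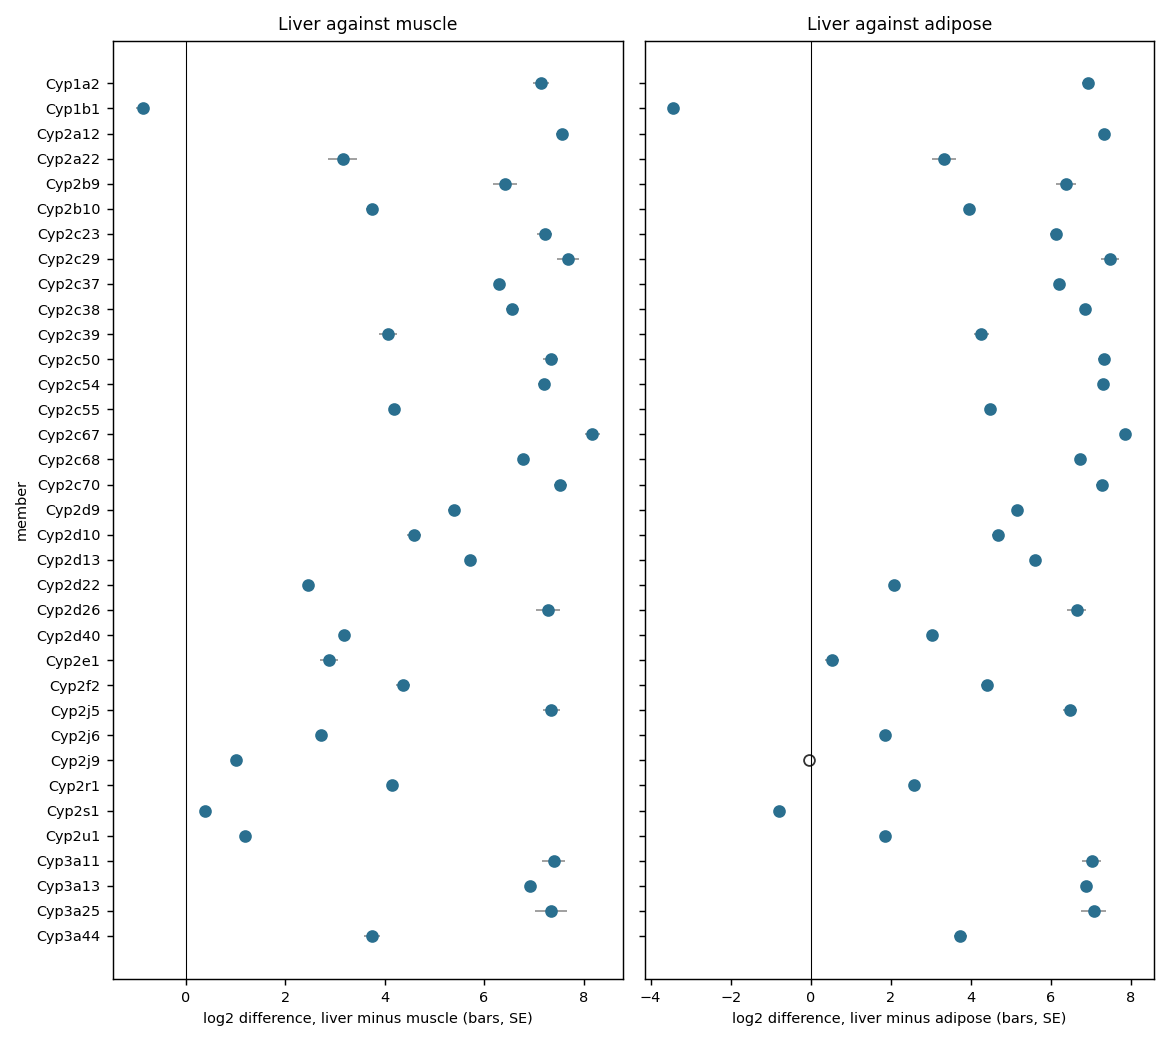
Difference in log2 level between liver and muscle (left) and between liver and adipose tissue (right) for the 35 members tested, as means over 4 pools a tissue with SE bars; filled points passed an adjusted p under 0.05. All lie to the right of 0 against muscle but Cyp1b1, and against adipose tissue Cyp1b1 and Cyp2s1 lie to the left and Cyp2j9 at 0.

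With age, 13 of the 34 members tested in liver changed (limma on pool means with the difference averaged over both genotypes, Benjamini-Hochberg adjusted p under 0.05). Cyp2b9, Cyp2a22, Cyp2c38, Cyp2c39, Cyp2c68, Cyp2c37, Cyp3a13 and Cyp2c55 rose, and Cyp2d10, Cyp2d9, Cyp2d40, Cyp2u1 and Cyp2d13 fell. Of all 13073 probe sets tested 30.0% rose and 16.8% fell, and the members' shares, 8 of 34 and 5 of 34, were above neither. The members' median difference was 0.13, beside 0.06 over all probe sets tested. Without array 1 of the 5-month Myc+/- pool 6 rose and 5 fell, Cyp2a22 and Cyp2c39 no longer passed, and the members' median was 0.04. Cyp2a22 and Cyp2s1 passed the filter although they were under it in 1 and 3 of the 4 liver pools, and without both 7 of 32 rose and 5 fell. The p-value of this fit measures how far the age difference varied between the genotypes in all 3 tissues, with 3 residual degrees of freedom shared by them. No second pool of like mice exists. Muscle and adipose pools thus enter the SE also where a member is dim in them. Cyp3a25 differed by -0.14 in both genotypes of liver, with an SE of 0.44. Its age difference in muscle, at a mean level of 6.03, was 2.12 higher in Myc+/- than in wild type. With liver fitted alone Cyp2c54 and Cyp2a12 also passed. With array medians set equal, the split was 5 higher and 7 lower, and with the median of the 3 arrays in place of the mean it was 4 and 5.

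Directions differed by subfamily. Of 11 Cyp2c members tested 5 rose and 0 fell, with a median of 0.37, and all 11 differences were above 0 (0.05 to 1.07). Without array 1 of the 5-month Myc+/- pool 9 of the 11 were above 0 and 4 rose. Of 6 Cyp2d members tested 4 fell and 0 rose, with a median of -0.58, and Cyp2d26 alone was above 0, at 0.13. Neither split was tested against other genes. In order along chromosome 15, the 7 genes between Cyp2d22 and Cyp2d26 (Cyp2d11, Cyp2d10, Cyp2d9, Cyp2d12, Cyp2d34, Cyp2d13 and Cyp2d40) had differences of -0.53, -1.16, -1.11, -0.01, -0.13, -0.35 and -0.81, among which Cyp2d11, Cyp2d12 and Cyp2d34 were too dim to test. Probe sets of close relatives such as these may share signal, which was not tested.

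**Figure D2:**
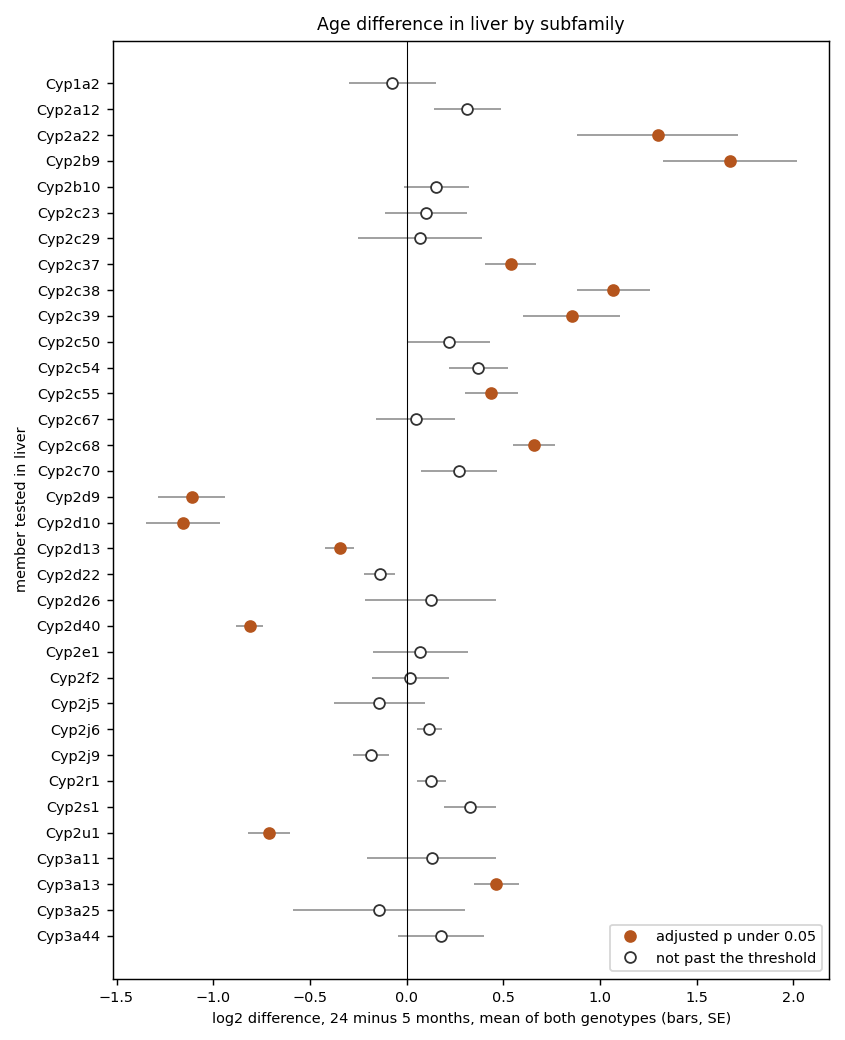
Log2 difference of 24 minus 5 months in liver, averaged over both genotypes, for the 34 members tested, ordered by subfamily, with SE bars from the pool-level fit; filled points passed an adjusted p under 0.05. Filled points to the right are mostly Cyp2c members, and 4 of the 5 filled points to the left are Cyp2d members.

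Cyp2b9, a steroid hydroxylase known as a female-predominant enzyme, had the largest age difference of the members tested. It read 11.18, 10.33 and 10.77 on the arrays of 5-month wild type liver, 11.32, 11.52 and 11.47 in 5-month Myc+/-, 13.27, 13.32 and 13.30 in 24-month wild type and 12.34, 12.18 and 12.23 in 24-month Myc+/-. Every array of old liver was above every array of young liver, and the old wild type pool was the highest. In the pool-level fit the difference was 1.67 ± 0.35 (3.19-fold; limma, adjusted p = 0.0087), made of 2.54 in wild type and 0.81 in Myc+/-. Its neighbour Cyp2b13, whose promoter window differs at 2 bases, was too dim to test and read 5.68 ± 0.53, 6.14 ± 0.10, 8.25 ± 0.10 and 6.29 ± 0.17 in the same order (SD, n = 3 arrays). Its old wild type arrays, 8.15, 8.26 and 8.34, stood above all others. Cyp2b10, the CAR target of the subfamily, differed by 0.15 ± 0.17 with age (adjusted p = 0.477, limma) and its arrays of young and old liver overlapped.

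Cyp2c38 and Cyp2c39, female-predominant members that oxidise arachidonic acid and retinoic acid, were lowest in young wild type liver. Cyp2c38 read 9.53, 9.23 and 9.30 there, 9.93, 10.37 and 10.19 in 5-month Myc+/-, 10.68, 10.87 and 10.90 in 24-month wild type and 10.84, 10.85 and 10.82 in 24-month Myc+/-. Old liver was above young liver on every array, and the old pools overlapped. It rose by 1.07 ± 0.19 (2.10-fold; limma, adjusted p = 0.00483). Cyp2c39 read 7.75 ± 0.24, 8.49 ± 0.32, 9.15 ± 0.14 and 8.79 ± 0.09 in the pool order used for Cyp2b9 (SD, n = 3 arrays), a difference of 0.86 ± 0.25 (adjusted p = 0.0304, limma). That call was lost without array 1 of the 5-month Myc+/- pool (0.76, adjusted p = 0.0655).

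Cyp2c68 and Cyp2c37 rose, with like differences in both genotypes for the former. Cyp2c68 read 10.59, 10.47 and 10.27 in 5-month wild type, 10.17, 10.73 and 10.33 in 5-month Myc+/-, 11.06, 11.26 and 11.09 in 24-month wild type and 10.96, 11.03 and 11.10 in 24-month Myc+/-. Young and old arrays did not overlap, and the genotypes did at each age. The difference was 0.66 ± 0.11 (limma, adjusted p = 0.00379). Cyp2c37, a pericentral arachidonic acid oxidase, rose by 0.54 ± 0.13 (12.82, 12.71, 13.25 and 13.35 by pool). Cyp3a13, a PXR-responsive steroid hydroxylase, rose by 0.47 ± 0.12 (12.21, 12.17, 12.74 and 12.58), and this call was lost with equal array medians (0.35).

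Cyp2c55, an arachidonic acid hydroxylase induced by CAR and PXR, differed more between genotypes than between ages. It read 8.49, 8.04 and 8.20 in 5-month wild type, 8.74, 9.00 and 8.95 in 5-month Myc+/-, 8.18, 8.38 and 8.72 in 24-month wild type and 9.54, 9.49 and 9.74 in 24-month Myc+/-. Every Myc+/- array was above every wild type array. The age difference was 0.44 ± 0.14 (0.18 in wild type and 0.69 in Myc+/-; limma, adjusted p = 0.0382). The call was lost under 8 of 23 alternatives, with an adjusted p of up to 0.472.

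Cyp2a22, a dim member of the coumarin-hydroxylase group, stood apart in a single pool. It read 6.02, 5.41 and 5.11 in 5-month wild type, 7.45, 7.75 and 7.63 in 5-month Myc+/-, 7.98, 8.01 and 7.55 in 24-month wild type and 8.08, 7.84 and 7.71 in 24-month Myc+/-. It passed the filter only through the pools where it is high, so its call is a description and supports nothing. The age difference of 1.30 was 2.33 in wild type and 0.27 in Myc+/-. The call was lost under 6 of 22 alternatives, among them the one without array 1 of the 5-month Myc+/- pool (1.26; limma, adjusted p = 0.0532). Cyp2a12, a testosterone and bile acid hydroxylase of the subfamily, differed by 0.31 (12.87, 12.82, 13.09 and 13.22 by pool) and did not pass.

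Among the members that fell, Cyp2d9, a male-predominant testosterone hydroxylase, read 11.74, 11.65 and 11.71 in 5-month wild type, 11.24, 11.73 and 11.80 in 5-month Myc+/-, 10.19, 10.24 and 10.25 in 24-month wild type and 10.90, 10.84 and 10.78 in 24-month Myc+/-. Old arrays were below young arrays throughout, and among old arrays wild type was below Myc+/-. It fell by 1.11 ± 0.18 on the log2 scale (2.16-fold; limma, adjusted p = 0.00314), by 1.47 in wild type and by 0.75 in Myc+/-.

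Cyp2d10, whose promoter window is printed beside that of Cyp2d9, read 11.50, 11.46 and 11.50, then 11.74, 11.83 and 11.54, in the young pools and 10.54, 10.41 and 10.21, then 10.69, 10.24 and 10.54, in the old pools, wild type before Myc+/-. Young and old arrays did not overlap, and the old genotypes did. It fell by 1.16 ± 0.19 (2.23-fold; limma, adjusted p = 0.00396), by 1.10 in wild type and 1.21 in Myc+/-. Cyp2d40 read 10.36, 10.14, 10.05, then 10.11, 10.44 and 10.56 when young and 9.47, 9.31, 9.38, then 9.37, 9.73 and 9.51 when old, in the same order. It fell by 0.81 ± 0.07 (adjusted p = 0.00038, limma), with -0.79 in wild type and -0.83 in Myc+/-.

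Cyp2u1, an orphan fatty acid hydroxylase that is male-predominant in mouse liver, read 10.44, 10.39 and 10.46 in 5-month wild type, 10.24, 10.26 and 10.11 in 5-month Myc+/-, 9.30, 9.66 and 9.52 in 24-month wild type and 9.67, 9.75 and 9.74 in 24-month Myc+/-. It was lower on every old array. It fell by 0.71 ± 0.11 (limma, adjusted p = 0.00301), by 0.94 in wild type and 0.49 in Myc+/-. Cyp2d13 fell by 0.35 ± 0.08 (11.72, 11.59, 11.30 and 11.32 by pool; limma, adjusted p = 0.0108). Cyp2b9, Cyp2d9, Cyp2d10, Cyp2d40 and Cyp2u1 passed under all 23 alternatives tried for this comparison.

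**Figure D3:**
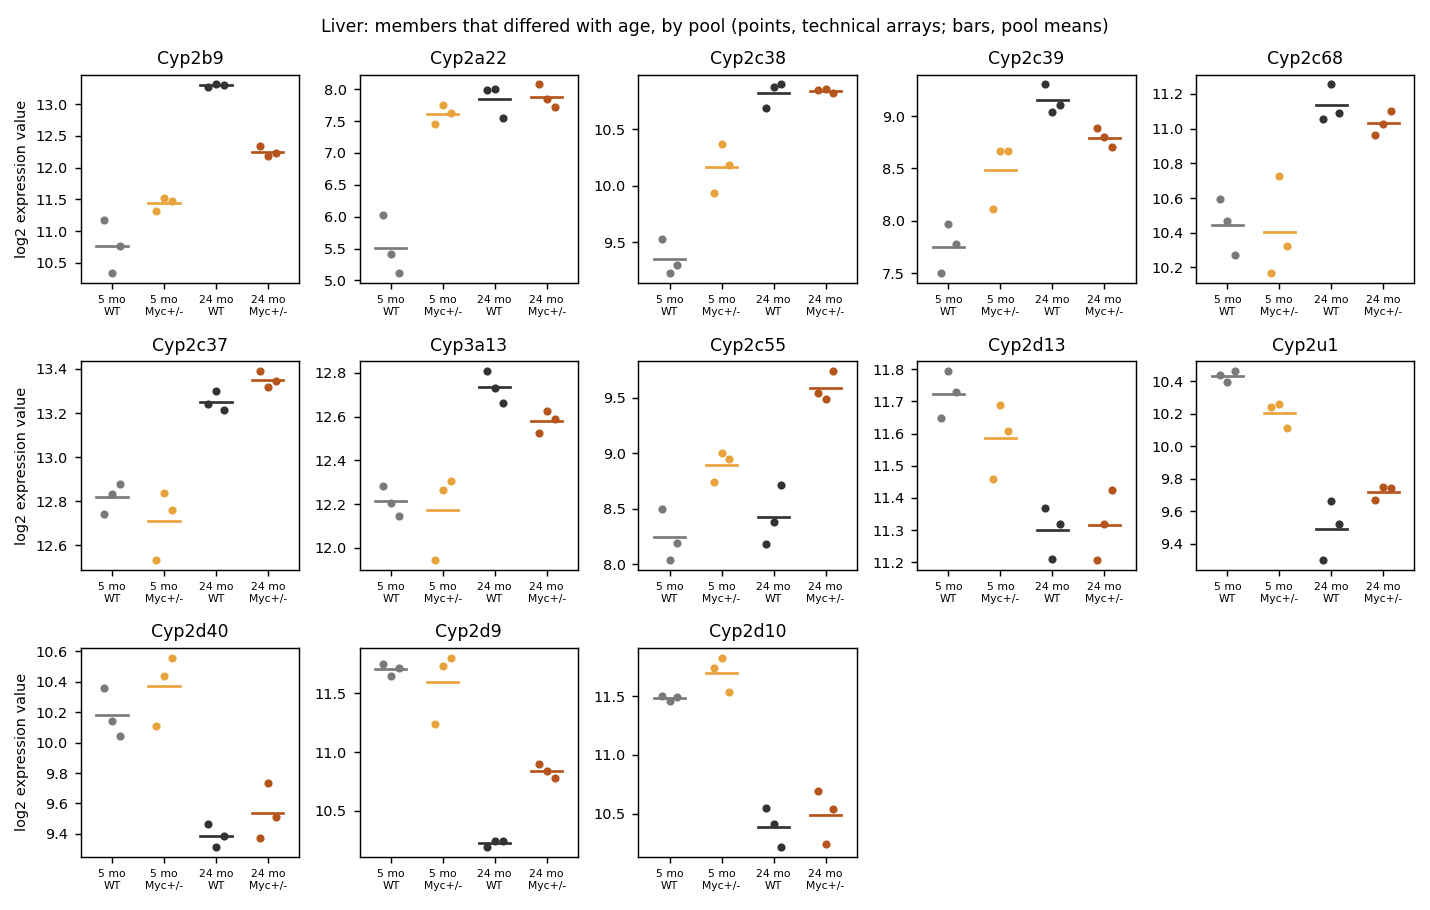
Log2 expression values on each technical array (points) and pool means (bars) in the 4 liver pools for the 13 members that passed for age, ordered from the largest rise to the largest fall; each panel has its own vertical axis. Old arrays lie above young arrays in the Cyp2b9, Cyp2c38 and Cyp2c68 panels and below them in the Cyp2d panels, Cyp2a22 is low in young wild type liver alone, and Cyp2c55 is higher in both Myc+/- pools.

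Of the 17 members with a mean liver level above 12, a bound chosen after the values were seen, 2 rose (Cyp2c37 and Cyp3a13) and 0 fell, with a median of 0.10 and a range of -0.14 to 0.54. Without array 1 of the 5-month Myc+/- pool 2 rose and 0 fell, with a median of 0.02 and a range of -0.21 to 0.49. Some of these levels lie close to the 99.9th percentile of the liver arrays, and compression of differences there was not tested. Cyp2e1 read 14.37 ± 0.04, 14.20 ± 0.40, 14.36 ± 0.04 and 14.35 ± 0.02 (SD, n = 3 arrays; young wild type, young Myc+/-, old wild type, old Myc+/-), and Cyp1a2, the hepatic AHR target that oxidises caffeine, 13.34 ± 0.04, 13.22 ± 0.21, 13.12 ± 0.07 and 13.30 ± 0.06. Cyp3a11, the main mouse relative of human CYP3A4, read 13.51 ± 0.12, 13.52 ± 0.36, 13.61 ± 0.02 and 13.68 ± 0.10. The wide SD of each young Myc+/- pool came with its array 1. Cyp2f2, the periportal naphthalene oxidase, read 14.19, 13.94, 14.02 and 14.14, Cyp2d26 read 13.89, 13.83, 13.99 and 13.97, and Cyp2j5, an epoxygenase also known from kidney, 12.94, 12.82, 12.75 and 12.73. In single-gene subfamilies, Cyp2r1, the vitamin D 25-hydroxylase, read 9.87, 9.97, 9.94 and 10.15, and Cyp2s1 read 6.80, 6.69, 7.32 and 6.83. The 21 members tested and not called ranged from -0.18 to 0.37.

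By groups of textbook role, chosen with earlier results of these data known, 3 of 4 tested female-predominant members rose (median 0.96) and 2 of 4 male-predominant members fell (median -0.39), beside 30.0% risen and 16.8% fallen over all probe sets. These groups were not tested against other genes. The exception among the first was Cyp3a44 and those among the second Cyp1a2 and Cyp2e1. Without array 1 of the 5-month Myc+/- pool Cyp2c39 of the first group did not pass either (0.76; limma, adjusted p = 0.0655). Of 6 CAR- or PXR-induced members 3 rose (Cyp2c37, Cyp2c55 and Cyp3a13; median 0.30), of 7 pericentral members 1 (median 0.13) and of 5 tested members grouped as oxidising arachidonic acid 1 (median 0.07).

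Between genotypes no member of liver passed at the pool level: 0 of 34 with the age average (limma, adjusted p under 0.05), as 0 of 13073 probe sets passed in either direction (0.00% higher and 0.00% lower). Of the members 3 (8.82%) had an unadjusted p under 0.05, as did 957 of all probe sets (7.32%). Cyp2a22 is among the 3, and it was under the filter in 5-month wild type liver, so its difference is a description. The members' median difference was 0.03, and 0.09 without array 1 of the 5-month Myc+/- pool. Cyp2c55 differed by 0.91 ± 0.14 (0.65 at 5 months and 1.16 at 24 months; limma, adjusted p = 0.32), Cyp2a22 by 1.06 ± 0.42 (2.10 and 0.03; adjusted p = 0.681) and Cyp2d40 by 0.17 ± 0.07. For Cyp2c55 the adjusted p ran from 0.0921, with liver fitted alone, to 0.854 over the alternatives. A missed threshold with 1 pool a group does not show that the genotypes are alike.

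Against the technical error of the arrays, which compares RNA mixtures and not mice, members also differed between genotypes (limma on arrays, adjusted p under 0.05 and at least 1.5-fold). Between 24 and 5 months 6 were higher and 4 lower in wild type (10.0% and 4.34% of all probe sets), and 5 higher and 3 lower in Myc+/- (8.44% and 3.43%). Without array 1 of the 5-month Myc+/- pool the latter became 2 higher and 4 lower. At 5 months 7 members were higher in Myc+/- and 0 lower (0.375% and 0.0841% of all), or 6 of 32 without the 2 members that are under the filter in a liver pool. They were Cyp2a22 by 2.10 ± 0.19 (array SE; 4.28-fold), Cyp3a44 by 0.84 ± 0.21, Cyp2c38 by 0.81 ± 0.17, Cyp2c39 by 0.74 ± 0.17, Cyp2b10 by 0.70 ± 0.14, Cyp2b9 by 0.68 ± 0.15 and Cyp2c55 by 0.65 ± 0.15. This count rests on single arrays of young wild type liver: it was 3 without array 2 of that pool, and 3 and 1 without arrays numbered 2 and 3 of every pool. Array 1 of that pool read higher than its 2 companions for Cyp2b9, Cyp2b10, Cyp2b13, Cyp2a22 and Cyp3a44. At 24 months Cyp2c55 was higher in Myc+/- by 1.16 ± 0.15 and Cyp2d9 by 0.61 ± 0.13, and Cyp2b9 was lower by -1.05 ± 0.15, which makes 2 higher and 1 lower (1.08% and 0.734% of all).

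The age difference itself differed between the genotypes for 7 members, 1 with a larger value in Myc+/- (1.20% of all probe sets) and 6 with a smaller one (1.23%), or 1 and 5 without Cyp2a22 and Cyp2s1. Cyp2a22 differed by -2.06 ± 0.27, Cyp2b9 by -1.73 ± 0.22, Cyp2c39 by -1.09 ± 0.23, Cyp3a44 by -1.0 ± 0.30, Cyp2c38 by -0.79 ± 0.24 and Cyp2b10 by -0.64 ± 0.19 (array SE), and Cyp2d9 by 0.72 ± 0.19. In each of the 7, the wild type pools lay farther apart than the Myc+/- pools. Without array 1 of the 5-month Myc+/- pool the count was 6 and Cyp2d9 was not among them, and it was 4 without array 2 or 3 of the 5-month wild type pool or array 2 or 3 of the 5-month Myc+/- pool, and 3 without array 3 of every pool. The contrast has 1 pool in each corner, so it carries no error between pools.

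**Figure D4:**
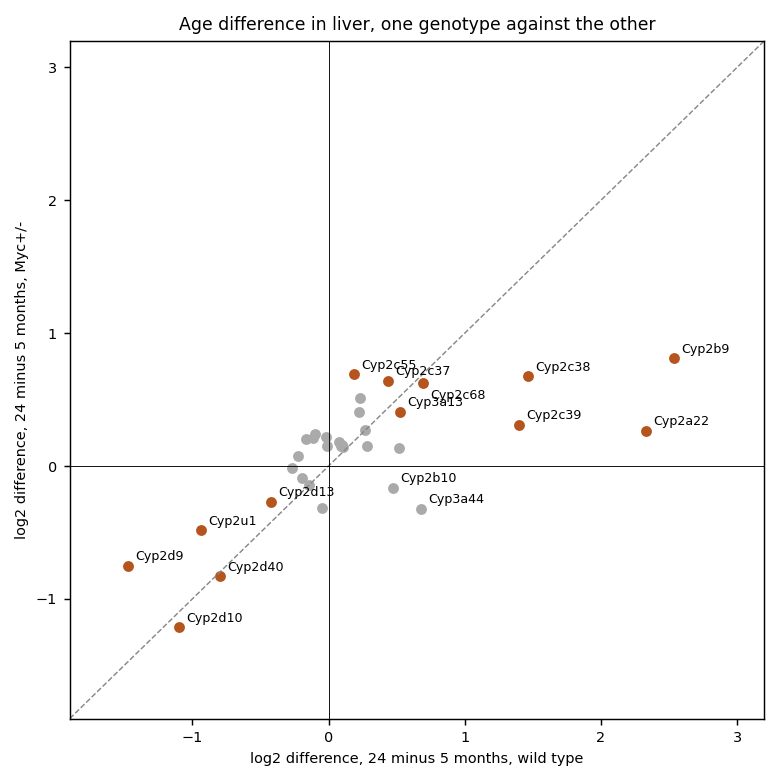
Log2 difference of 24 minus 5 months in wild type liver (horizontal) against that in Myc+/- liver (vertical) for the 34 members tested; coloured points passed for age at the pool level, and the dashed line marks equal differences. Cyp2b9 (2.54 and 0.81), Cyp2a22 (2.33 and 0.27), Cyp2c38 (1.46 and 0.67) and Cyp2c39 (1.40 and 0.31) lie far below the line, while Cyp2d10 and Cyp2d40 lie close to it.

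Genes around the P450 enzymes were read from lists chosen with earlier results known, and their counts stand beside 30.0% risen and 16.8% fallen over all probe sets. Of 20 nuclear receptors and liver transcription factors 6 rose and 4 fell with age, shares close to those. The AHR gene rose by 0.49 ± 0.11, Hnf4a by 0.48 ± 0.09 and Esr1, the oestrogen receptor, by 0.81 ± 0.13, and Cebpa, a hepatocyte differentiation factor, fell by 0.85 ± 0.20. The genes of PXR (Nr1i2, 0.08 ± 0.10) and CAR (Nr1i3, -0.13 ± 0.11) did not pass. In the growth hormone list 3 of 10 rose and 1 fell: Socs2, a STAT5 target, rose by 1.66 ± 0.11, Jak2 by 0.56 ± 0.06 and Stat5b by 0.44 ± 0.08, and Cish, another STAT5 target, fell by 0.38 ± 0.10. Bcl6, a repressor of female-predominant genes, read 9.97, 8.77, 9.16 and 9.91 by liver pool (order as above) and did not pass. Of 14 clock and PAR bZip genes, which drive daily rhythms of P450 genes, 9 fell and 2 rose: Dbp differed by -2.46 ± 0.28, Ciart by -3.18 ± 0.19 and Tef by -1.08 ± 0.12. Their part in the P450 differences was not tested. A list of electron donors and binding partners of P450 enzymes was not limited to those of families 1 to 3. It lacks P450 oxidoreductase because no named probe set matched it. Of its 7 genes 0 rose and 3 fell, including Fdx1 (-1.0 ± 0.08) and the P450-binding Pgrmc1 (-0.42 ± 0.07). Of 12 glucuronosyltransferase genes 2 fell, of 17 glutathione transferase genes 1 rose and 3 fell, of 8 sulfotransferase genes 1 fell, and of 24 genes of other P450 families 9 rose and 3 fell. The male-predominant transporter Slco1a1 fell by 1.24 ± 0.40 and the female-predominant Slco1a4 rose by 0.74 ± 0.09 (limma on pool means in all of these).

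Markers of other cell types and of inflammation were read in the same liver pools, beside 30.0% risen and 16.8% fallen over all probe sets. Macrophage markers summed to 14.43, 14.46, 15.43 and 15.71 (log2; young wild type, young Myc+/-, old wild type, old Myc+/-), with arrays of 14.39 to 14.52 in young and 15.41 to 15.74 in old liver, and 19 of 21 rose with age. Neutrophil markers summed to 10.84, 12.69, 14.15 and 13.46, with 7 of 7 tested risen, and the arrays ran from 10.83 to 10.86 in young wild type and from 12.49 to 12.80 in young Myc+/- liver. Acute phase genes summed to 17.11, 17.40, 18.02 and 17.47, with 4 of 21 risen and 0 fallen, shares above neither of those over all probe sets. All 21 age differences, averaged over both genotypes, were above 0. Their median was 0.50, beside 0.06 over all probe sets tested. Saa1, a marker of inflammation that is known to go with lower P450 expression, read 8.68 and 12.40 in young and old wild type and 12.14 and 8.45 in young and old Myc+/- liver. Exocrine pancreas markers summed to 10.56, 10.48, 11.24 and 13.25, with 8 of 10 tested risen. Of 14 matched pancreas markers 10 passed the filter, and of 11 neutrophil markers 7. The filter used the mean over the 4 liver pools, so markers high in old liver alone could pass it. The counts of risen markers in these 2 lists are therefore a description. Of 13 pericentral markers 6 rose and 0 fell, and of 9 periportal markers 2 rose and 1 fell. The part of these in the differences of the members was not tested.

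In muscle 7 members passed the filter. With age 4 rose and 0 fell (22.8% of all probe sets rose and 18.2% fell), with a median of 0.47. Cyp1b1 read 7.11, 6.77 and 6.68 in 5-month wild type, 6.80, 6.70 and 6.87 in 5-month Myc+/-, 7.98, 7.99 and 8.02 in 24-month wild type and 7.75, 7.39 and 7.46 in 24-month Myc+/-, and old arrays lay above young arrays. Both young pools were under the filter of 6.91, so it passed only through the old pools, and its difference of 0.95 is a description. Without it 3 of 6 rose, with a median of 0.33. Cyp2f2 rose by 1.06 ± 0.20 (9.57, 8.80, 10.88 and 9.60 by pool) and Cyp2j6 by 0.47 ± 0.06 (7.47, 7.41, 7.98 and 7.84). Cyp2e1, made by adipocytes as well as hepatocytes, read 11.06 ± 0.06 in 5-month wild type (SD, n = 3 arrays), 10.64, 11.15 and 11.02 in 5-month Myc+/-, 12.51, 12.61 and 12.57 in 24-month wild type and 11.15, 11.21 and 11.24 in 24-month Myc+/-. It was high in the old wild type pool alone, and its age difference of 0.88 ± 0.25 (limma, adjusted p = 0.0288) was 1.5 in wild type and 0.26 in Myc+/-. In the same pools adipocyte markers summed to 14.07, 14.03, 15.28 and 14.44 (8 of 10 tested rose; Adipoq, which defines fat cells, read 10.29, 10.34, 12.33 and 11.14) and epidermal and sebaceous markers to 11.28, 10.53, 12.95 and 12.58 (10 of 11 tested rose). Hepatocyte markers summed to 12.61, 11.08, 10.38 and 12.07, with Alb, albumin, at 10.94, 9.31, 8.78 and 11.14, lowest in the pool where Cyp2e1 was highest. The filter on the muscle mean could pass markers that are high in old pools alone, so these counts of risen markers are a description. The part of these markers in the result was not tested. Between genotypes 0 members passed (0.00% of all probe sets higher and 0.00% lower; limma), 2 of 7 had an unadjusted p under 0.05 (4.67% of all probe sets), and Cyp2f2 differed by -1.03 ± 0.20 (adjusted p = 0.731).

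In adipose tissue 11 members passed the filter, and with age 2 rose and 0 fell (12.0% and 14.0% of all). Cyp1b1 read 9.07, 9.03 and 9.28 in 5-month wild type, 9.39, 9.77 and 9.59 in 5-month Myc+/-, 10.48, 10.48 and 10.55 in 24-month wild type and 10.21, 10.19 and 10.33 in 24-month Myc+/-. Old arrays were above young arrays, and it rose by 1.02 ± 0.18 (2.03-fold; limma, adjusted p = 0.0104). Cyp2d22, which read 10.24, 10.23, 10.69 and 10.88 by pool, rose by 0.56 ± 0.08 (adjusted p = 0.00587, limma). Cyp2e1, bright in fat at 13.95, 13.84, 13.70 and 13.65, differed by -0.22 and did not pass. Macrophage markers summed to 15.33, 15.55, 16.32 and 16.25, and 16 of them rose. Between genotypes 0 of 11 members passed (0.00% of all probe sets higher and 0.00765% lower; limma), and 3 had an unadjusted p under 0.05 (8.04% of all probe sets). Among these Cyp2f2 read 10.25, 10.24 and 10.25 against 9.02, 9.03 and 9.02 at 5 months and 9.94 ± 0.07 (SD, n = 3 arrays) against 9.35, 9.51 and 9.61 at 24 months, wild type before Myc+/-. The genotypes did not overlap at either age, and the difference was -0.84 ± 0.20 (adjusted p = 0.391, limma). Cyp2c23, also under an unadjusted p of 0.05, was under the filter in the 5-month wild type adipose pool, as was Cyp2d26. It passed the filter only through the other pools, so its difference is a description. Without both, 2 of 9 members rose with age and 0 fell, and 0 passed between the genotypes of the adipose pools. Hepatocyte markers in these pools summed to 11.38, 12.83, 12.57 and 12.89, and epididymal and sperm markers to 9.66, 9.75, 10.25 and 12.44, whose part in the result was not tested.

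**Figure D5:**
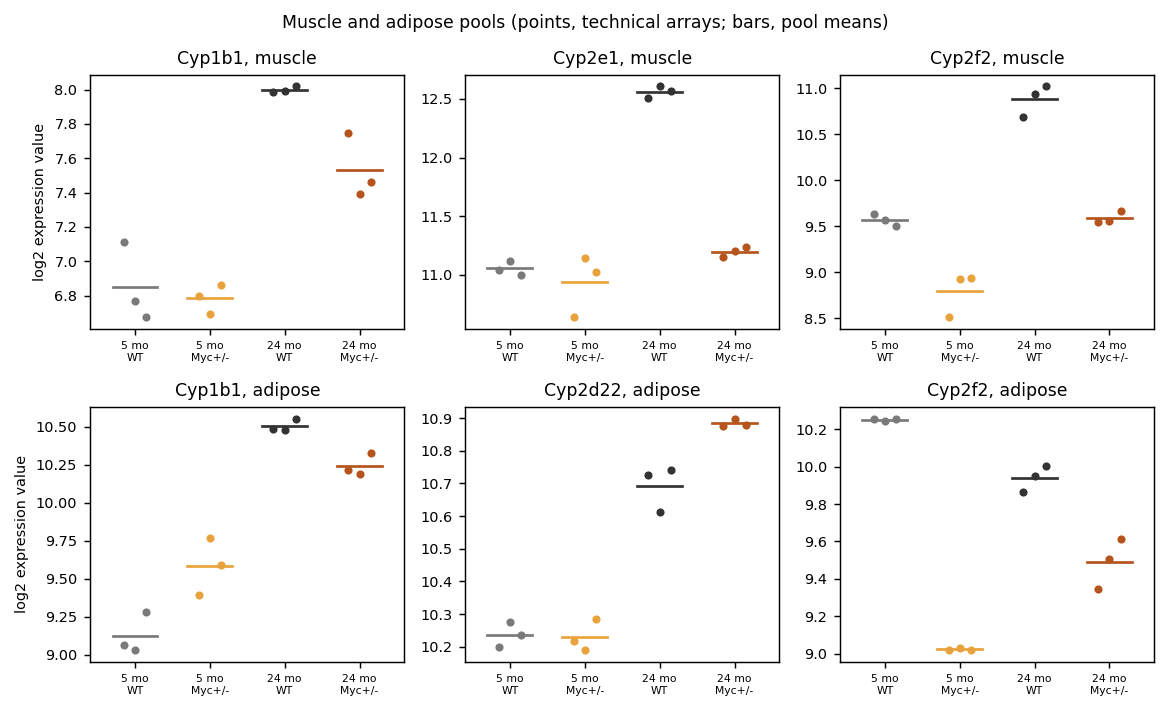
Log2 expression values on each technical array (points) and pool means (bars) of Cyp1b1, Cyp2e1 and Cyp2f2 in muscle (top) and of Cyp1b1, Cyp2d22 and Cyp2f2 in adipose tissue (bottom); each panel has its own vertical axis. Cyp1b1 is higher in old pools of both tissues, Cyp2e1 is high in old wild type muscle alone, and Cyp2f2 is lower in the Myc+/- pools of adipose tissue at both ages.

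The age difference was tested between tissues for members bright enough in both. Of 6 members 0 were higher and 1 lower in liver than in muscle (6.72% and 2.62% of all probe sets): Cyp2u1, at -0.74 ± 0.16. Of 10 members 0 were higher and 3 lower in liver than in adipose tissue (23.1% and 9.94% of all): Cyp2d22 at -0.69 ± 0.11, Cyp2u1 at -0.58 ± 0.16 and Cyp2j9 at -0.46 ± 0.13. Cyp2u1 differed with age by 0.03 in muscle and -0.13 in adipose tissue (pool-level fit). Without the arrays numbered 1 or 2 of every pool, 0 members passed between liver and muscle, and without the arrays of any 1 number 2 passed between liver and adipose tissue. Both comparisons share the liver pools.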

How the data were processed

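RNA of 12 pools was measured on 36 arrays. The deposited values are log2 expression values per probe set, and the submitters' processing notes name Affymetrix Expression Console and RMA without versions; the authors' settings are not given in the sources used here. The labels give conflicting labelling kits, 3' IVT Express and WT, and 2 homogenization methods that are not tied to samples. Names came from the platform annotation: 21789 of 35556 probe sets had 1 symbol.

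The 3 arrays of a pool were averaged, since they share RNA. The pool-level model was fitted with limma 3.58.1 (R 4.3.3, statmod 1.5.0) over 14675 probe sets, with a tissue term and age and genotype terms within tissue (12 pool means, 3 residual degrees of freedom, intensity trend). Benjamini-Hochberg adjustment ran over all 13073 probe sets of a tissue above the 40th percentile. A second limma fit on the 36 arrays used an adjusted p under 0.05 and 1.5-fold. Both were run on simulated data with known age changes in liver and independent noise. That noise is not the spread of the real pools, so the run does not bear on single calls. ± gives the SE of a difference or, where stated, the SD of 3 arrays. The p-values measure spread between these pools or arrays.

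Members with values of each pool were named by a rule: the brightest of each subfamily and the largest age, genotype and interaction differences. The members, lists and rule were chosen with earlier results of these data known. Alternatives changed the filter, trend, centring, summary, fold, fitted tissues, pools and arrays. The mean of all probe sets of a symbol was not run, since each member has 1. Same-numbered liver arrays correlated from -0.23 to 0.41 in their deviations from pool means, so the numbers were not taken as pairs.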

Additional observations from a re-analysis of the deposited data

Results flagged for a closer look

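The age difference in liver differed between the genotypes for 7 members by the array-level interaction term (Myc+/- minus wild type, limma): Cyp2a22 (-2.06), Cyp2b9 (-1.73), Cyp2c39 (-1.09), Cyp3a44 (-1.0), Cyp2c38 (-0.79), Cyp2b10 (-0.64) and Cyp2d9 (0.72). In Cyp3a44 and Cyp2b10 the sign also turned, from 0.68 to -0.32 and from 0.47 to -0.16. Without array 1 of the 5-month Myc+/- pool the Cyp3a44 difference in Myc+/- was -0.61 (limma on arrays, adjusted p = 0.0182) and its interaction -1.29. Cyp2a22 was under the filter in young wild type liver. Each value compares 4 RNA pools.

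The age difference differed between tissues, by a test of the difference at the pool level, for Cyp2u1 (-0.74, liver minus muscle, and -0.58, liver minus adipose tissue), Cyp2d22 (-0.69, liver minus adipose tissue) and Cyp2j9 (-0.46, liver minus adipose tissue).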

How the results depend on the processing

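The count of members that changed with age in liver was 9 to 17 under other filters, summaries, centring and models, 11 to 13 with arrays left out, 10 without the Myc+/- liver pools and 6 (2 higher and 4 lower) without the wild type liver pools. For genotype it was 0 in every tissue under each alternative. With age in muscle 2 members passed at the 60th percentile and 9 with no filter, and in adipose tissue 4 with no filter and 4 with the tissue fitted alone. The age difference between liver and muscle passed for 11 members with no filter, 2 with equal medians and 0 to 1 with a replicate number left out, and between liver and adipose tissue for 10 with no filter. At 2-fold the array-level counts were 6 (wild type, age), 1 (Myc+/-, age), 1 (genotype at 5 months) and 4 (interaction). With no filter the genotype count at 24 months was 5. With arrays left out the genotype count at 5 months ran from 1 to 7 and the interaction count from 3 to 7. A replicate block in the array-level fit left the counts at 10, 8, 7, 3 and 7. The cause of these changes was not tested, beyond the fewer arrays, pools or probe sets entered. Of the named members' values for age and genotype in liver, 423 kept their side of the threshold, 26 lost the call and 4 gained it; these leave out 1 single array only, array 1 of the 5-month Myc+/- pool. With every single liver array left out in turn as well, the 13 members called for age lost 29 of 298 calls.

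Each group was 1 pool, so no alternative adds error between pools, and the filter leaves 18 dim members untested in liver.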

Other observations

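Some P450 probe sets match several symbols and were left out of the members. A probe set shared by Cyp3a41b, Cyp3a44 and Cyp3a41a, female-predominant steroid hydroxylases, read 9.70, 9.71, 11.07 and 9.93 in liver (young wild type, young Myc+/-, old wild type, old Myc+/-), a difference with age of 1.37 in wild type and 0.23 in Myc+/-. A second one, which also matches Cyp3a11, read 9.53, 9.56, 10.78 and 9.78. Old wild type liver was the highest pool on both, as it was for Cyp2b9 and Cyp2b13. A probe set of Cyp2a5 and Cyp2a4 read 13.10, 13.00, 12.77 and 13.15, one of Cyp2c69, Cyp2c67, Cyp2c68 and Cyp2c40 read 12.54, 12.41, 12.86 and 12.95, and one of Cyp3a59, Cyp3a57 and Cyp3a25 read 11.80, 11.88, 11.89 and 11.82.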
